A study of Caenorhabditis elegans with 2 samples.

Results

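Regions of eGFP-SKN-1 signal that lie next to small nucleolar RNA (snoRNA) and small nuclear RNA (snRNA) genes are described here, in whole L4 larvae of Caenorhabditis elegans. A region was a member when its summit lay within 300 bp of a gene annotated as snoRNA or snRNA, spliced leader genes included, and not within 300 bp of a tRNA gene. Of the 29768 regions that the authors called on the pooled replicates, 216 were members, 174 with a snoRNA gene as the nearest and 42 with an snRNA gene. The choice used positions and annotation only, not the strength of the signal. Chromatin immunoprecipitation followed by sequencing was run on 2 biological replicates of 1 group, mixed-sex worms of strain OP342, genotype unc-119(ed3) III; wgIs342. The transgene wgIs342 carries skn-1 fused to eGFP, and the labels list the antibody under the name skn-1 while describing the target as the eGFP fusion. No untagged worms or other stages were among the samples analysed here, and the whole animal was used, so cell types cannot be told apart. All coordinates are on ce11 (WBcel235).

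SKN-1 is the worm counterpart of the Nrf transcription factors, known for the gut cell fate in the embryo and for detoxification and stress responses in the larval and adult intestine. snoRNAs guide chemical modification of ribosomal RNA, and snRNAs form the spliceosome. In nematodes the SL1 and SL2 spliced leader RNAs, made from the sls-1 and sls-2 genes, donate the short exon that is spliced onto most messenger RNAs, SL2 mainly onto downstream genes of operons. Small RNA genes of this kind are transcribed either by RNA polymerase II or by RNA polymerase III. Polymerase III promoters of the tRNA type hold an A box and a B box, the B box being bound by factor TFIIIC. In many animals snRNA-type promoters hold instead a proximal sequence element, bound by the SNAP complex, a short distance before the start.

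Some gene starts hold recognisable words, and 8 are shown because they hold the tRNA-type element that went with strong signal. These are the 120 bases from 100 before to 20 into the gene, on the gene's strand, for 8 of the 9 snoRNA genes with the strongest pooled region among those with a B box word there, in sequence from RefSeq WBcel235. The one not printed is T02E1.9. Capitals mark the B box word in its wider form, GTTCNANNC, and the A box word TGGCNNA.
C05D2.15, chrIII:5602160-5602279, minus strand: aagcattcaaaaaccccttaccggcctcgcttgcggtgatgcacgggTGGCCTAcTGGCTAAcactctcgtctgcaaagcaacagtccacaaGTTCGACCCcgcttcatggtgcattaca
C51F7.3, chrV:12303608-12303727, plus strand: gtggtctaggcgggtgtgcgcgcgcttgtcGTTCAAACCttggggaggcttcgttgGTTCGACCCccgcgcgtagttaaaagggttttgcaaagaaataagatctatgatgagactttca
R166.7, chrII:10545310-10545429, minus strand: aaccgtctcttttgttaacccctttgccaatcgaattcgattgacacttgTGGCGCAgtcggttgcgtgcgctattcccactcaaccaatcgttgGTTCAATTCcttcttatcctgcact
ZK546.18, chrII:4942500-4942619, minus strand: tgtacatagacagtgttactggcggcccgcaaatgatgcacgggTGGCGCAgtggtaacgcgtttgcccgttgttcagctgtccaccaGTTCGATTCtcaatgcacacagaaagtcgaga
Y75B12B.12, chrV:15191074-15191193, minus strand: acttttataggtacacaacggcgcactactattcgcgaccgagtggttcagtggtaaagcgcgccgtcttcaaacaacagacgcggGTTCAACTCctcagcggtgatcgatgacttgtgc
T03F7.8, chrV:11314158-11314277, plus strand: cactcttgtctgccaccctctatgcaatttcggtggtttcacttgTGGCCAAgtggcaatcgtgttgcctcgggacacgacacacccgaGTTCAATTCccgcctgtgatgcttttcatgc
F32E10.10, chrIV:7574022-7574141, plus strand: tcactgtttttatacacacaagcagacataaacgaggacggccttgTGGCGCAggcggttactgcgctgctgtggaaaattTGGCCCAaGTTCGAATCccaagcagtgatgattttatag
F12F6.11, chrIV:11549845-11549964, minus strand: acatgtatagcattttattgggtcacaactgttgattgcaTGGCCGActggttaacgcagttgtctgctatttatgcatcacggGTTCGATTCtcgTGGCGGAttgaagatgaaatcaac

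Another 4 starts are shown because they hold a different pair of words, chosen after the data were seen, AACCC and, 6 bases on, TGTC, in the place where a proximal sequence element lies. They are the genes with this pair, without a B box word, and with a pooled region among the 1000 strongest. Of the 38 members among the 1000 strongest, 18 had the wider B box or the pair at the start of the nearest gene. Capitals mark both words.
W05B2.8, chrIII:10989579-10989698, plus strand: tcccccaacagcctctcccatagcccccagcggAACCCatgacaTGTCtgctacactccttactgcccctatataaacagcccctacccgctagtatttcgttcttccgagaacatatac
ZK994.7, chrV:8500479-8500598, plus strand: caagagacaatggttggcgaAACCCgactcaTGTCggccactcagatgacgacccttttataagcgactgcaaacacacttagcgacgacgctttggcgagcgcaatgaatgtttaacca
sls-2.14, chrIII:11090504-11090623, minus strand: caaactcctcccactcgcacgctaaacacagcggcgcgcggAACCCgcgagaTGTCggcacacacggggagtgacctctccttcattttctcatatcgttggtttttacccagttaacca
C05H8.3, chrIII:5653949-5654068, minus strand: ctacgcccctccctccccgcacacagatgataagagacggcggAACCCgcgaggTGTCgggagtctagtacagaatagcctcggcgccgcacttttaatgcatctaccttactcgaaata

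The next starts belong to sls-2.3 and sls-2.1, the only spliced leader genes next to a region of the authors' thresholded list. Capitals mark runs of at least 8 bases that both genes share at the same distance from the start. The 2 windows were identical at 90 of 120 positions, with a longest shared run of 38 bases that covers the start of the leader itself.
sls-2.3, chrII:5544254-5544373, minus strand: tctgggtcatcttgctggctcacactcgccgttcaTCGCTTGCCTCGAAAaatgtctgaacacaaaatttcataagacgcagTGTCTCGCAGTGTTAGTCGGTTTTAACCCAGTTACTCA
sls-2.1, chrII:5844765-5844884, plus strand: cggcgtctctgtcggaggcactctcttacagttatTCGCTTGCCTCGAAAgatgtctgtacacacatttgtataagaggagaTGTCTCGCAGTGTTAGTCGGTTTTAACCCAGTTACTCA

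The 121 bases around the summits of all 5 members in the thresholded list are shown because they are the strongest signal next to these genes. They are written on the plus strand, and capitals would mark the SKN-1 core words GTCAT and ATCAT or the B box GTTCGANNC on either strand. The only capitals are a B box, read on the minus strand, near sls-2.1.
sls-2.3, chrII:5543976-5544096, plus strand: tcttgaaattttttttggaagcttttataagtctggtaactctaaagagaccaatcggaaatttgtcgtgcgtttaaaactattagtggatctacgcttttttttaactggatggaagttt
M7.15, chrIV:11082878-11082998, plus strand: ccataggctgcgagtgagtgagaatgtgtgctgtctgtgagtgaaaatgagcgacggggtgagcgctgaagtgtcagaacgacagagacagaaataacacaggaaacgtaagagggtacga
sls-2.1, chrII:5844684-5844804, plus strand: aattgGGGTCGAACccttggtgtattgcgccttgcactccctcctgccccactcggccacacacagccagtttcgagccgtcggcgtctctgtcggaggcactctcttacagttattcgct
D2021.6, chrX:8546019-8546139, plus strand: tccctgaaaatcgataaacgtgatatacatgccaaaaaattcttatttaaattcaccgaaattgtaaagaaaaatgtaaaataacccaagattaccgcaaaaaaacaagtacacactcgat
W06H8.17, chrV:6227737-6227857, plus strand: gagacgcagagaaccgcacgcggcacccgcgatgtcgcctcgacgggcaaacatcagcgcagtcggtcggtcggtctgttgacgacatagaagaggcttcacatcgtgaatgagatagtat

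Members were stronger than the pooled list as a whole, and a small number of them were among its strongest regions. The authors' thresholded list holds the 97 strongest pooled regions, and 5 of them were members, 2.31% of the members (exact 95% interval 0.756 to 5.32%) against 0.326% of all pooled regions. With a window of 100 bp in place of 300 bp, 1 of 133 regions was in that list (0.752%). Among the 1000 strongest pooled regions were 38 members, 17.6% of the members (12.8 to 23.3%) against 3.36% of all pooled regions. The intervals cover counting error only. Depth is unknown, as the deposited lists give regions and not reads. The strength used is the authors' signal value for each region, whose scale is not stated, so it is used here for ranks, with rank 1 the strongest. The median member had rank 10210 (exact 95% interval of the median 7912 to 12875) and a signal value of 10.8, where the median of all regions was rank 14884.5 and 9.53. Most members were therefore ordinary in strength, and the excess lay at the top of the list. Windows of 300 bp around these genes cover 0.336% of the nuclear genome and held 0.726% of the regions.

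**Figure D1:**
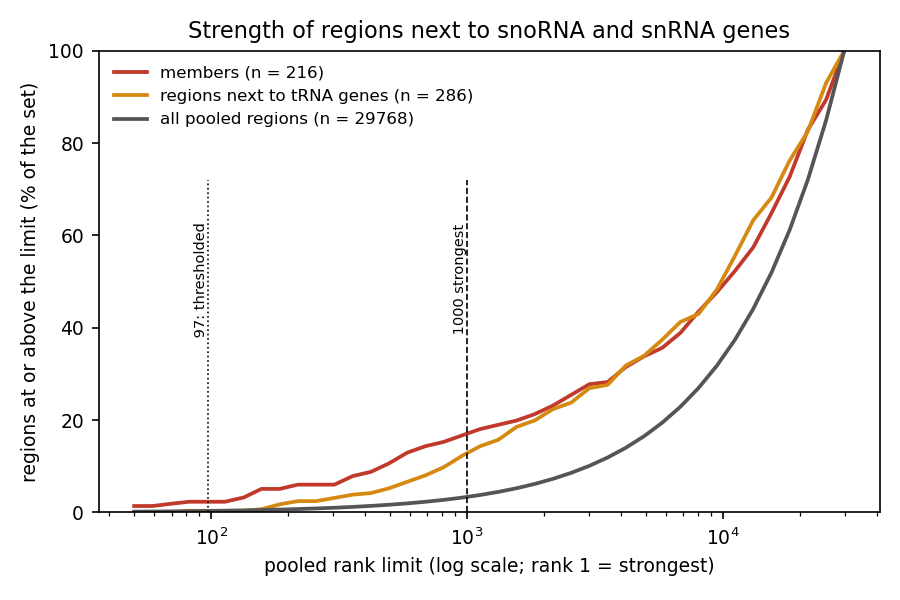
Share of each set (vertical axis, %) found at or above a pooled rank limit (horizontal axis, log scale, rank 1 strongest) for the 216 members, the 286 regions next to tRNA genes and all 29768 pooled regions. At the dashed line of the 1000 strongest the members reach 17.6%, the regions next to tRNA genes 12.6% and all regions 3.36%.

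Regions next to tRNA genes, left out by the rule, were the most similar neighbours. Of these 286 regions, 36 were among the 1000 strongest (12.6%, 8.97 to 17.0%) and 1 was in the thresholded list, with a median rank of 9722.5. The intervals of members and regions next to tRNA genes overlap at both limits, and no difference between them is claimed. Regions next to neither kind of gene numbered 29266, of which 926 (3.16%) were among the 1000 strongest.

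The 5 members in the thresholded list lay next to 2 spliced leader genes and 3 snoRNA genes. The region next to sls-2.3 had a pooled signal value of 41.0 (rank 29), rank 97 in replicate 1 and rank 306 in replicate 2. Its summit lay 128 bp past the end of sls-2.3, in the space between sls-2.3 and sls-2.2, which point towards each other on chromosome II. Next to sls-2.1, also on chromosome II, the region had a signal value of 37.0 (rank 42), rank 59 in replicate 1 and rank 14 in replicate 2, with its summit 121 bp before the start. Taking the worse of its replicate ranks, it was the best of the members. A further, weak pooled region next to sls-2.3 (rank 20705) overlaps the same replicate regions as the strong one. Neither of these summits lay in the promoter window of a protein-coding gene, taken as 1000 bp before to 500 bp after the outermost start.

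All 3 snoRNA members in the thresholded list did lie in such promoter windows. The region next to M7.15 (chromosome IV) had a signal value of 39.2, rank 32, rank 538 in replicate 1 and rank 4 in replicate 2, with its summit 209 bp before the snoRNA. It also lay in the promoter windows of klc-1, a kinesin light chain gene, and let-70, which encodes a ubiquitin-conjugating enzyme. At D2021.6 (chromosome X) the region had a signal value of 33.2, rank 63, and ranks 208 and 146 in replicates 1 and 2. Its pooled summit lay inside the snoRNA gene, 125 bp from the start, and in the promoter window of sdha-1, which encodes the flavoprotein subunit of succinate dehydrogenase. The replicate summits lay outside this gene of 129 bp, 18 bp before the start in replicate 1 and 132 bp after it in replicate 2. At W06H8.17 (chromosome V) it had a signal value of 31.2, rank 73, and ranks 635 and 271 in replicates 1 and 2. Its summit lay 247 bp before the snoRNA, in the promoter window of the protein-coding gene W06H8.6. For these 3 regions the snoRNA gene and the protein-coding gene cannot be told apart as the site of the signal.

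Just below the thresholded list, whose weakest signal value was 29.0, came 20 more of the 25 strongest members, with ranks 115 to 528. The region next to the snRNA gene W05B2.8, inside the dynein heavy chain gene dhc-4, had a signal value of 27.9, rank 115, and ranks 645 and 77 in replicates 1 and 2. Its summit lay 31 bp before the gene. C05D2.15, a snoRNA gene inside madf-11, had a region of rank 120, with ranks 181 and 1081 in replicates 1 and 2. The region over the neighbouring snoRNA genes C51F7.4 and C51F7.3, inside frm-7, had pooled rank 156 and was strong in both replicates, with ranks 116 and 81. F54E7.10, a snoRNA gene within the ribosomal protein gene rps-12, had a region of rank 145, ranks 121 and 1074 in replicates 1 and 2, in the promoter window of rps-12 itself. In replicate 2 the overlapping region of F54E7.10 had its summit inside the snoRNA, not at the pooled summit.

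ZK994.7, a snoRNA gene in the peroxidasin gene pxn-1, had pooled rank 149 and ranks 74 and 1221 in replicates 1 and 2. F38E11.14 had pooled rank 154 with ranks 541 and 2985, and R166.7 had pooled rank 215 with ranks 1542 and 2072. These regions were nearer the top in replicate 1 than in replicate 2.

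Other snoRNA members of the 25 strongest also ranked differently in the replicates. F32E10.10 (rank 348), ZK185.9 (rank 366) and F30H5.4 (rank 432) were stronger in replicate 1, with ranks 260, 885 and 207 there and 879, 1172 and 1220 in replicate 2. T02E1.9 (rank 191), Y75B12B.12 (rank 328), T03F7.8 (rank 346), K02F3.15 (rank 419), F12F6.11 (rank 427) and C41C4.11 (rank 485) were stronger in replicate 2. Their ranks there were 939, 1106, 97, 1955, 351 and 3827, and in replicate 1 they were 3247, 4756, 9464, 3282, 4088 and 8077. Neither replicate was thus the stronger throughout.

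Several of the 25 strongest members were strong in 1 replicate only. The region next to sls-2.4 had pooled rank 462, rank 14798 in replicate 1 and rank 31 in replicate 2. W03C9.9 showed the opposite order, with pooled rank 501, rank 650 in replicate 1 and rank 22094 in replicate 2. ZK546.18, a snoRNA gene in the Mediator subunit gene mdt-4, had pooled rank 314, rank 10379 in replicate 1 and rank 846 in replicate 2. F25H5.9, in the pyruvate kinase gene pyk-1, had pooled rank 528, rank 21653 in replicate 1 and rank 961 in replicate 2. Among the 38 members in the 1000 strongest pooled regions, 8 were also among the 1000 strongest of both replicates (21.1%) and 11 of neither. Of all the 1000 strongest pooled regions, 135 were among the 1000 strongest of both replicates (13.5%), so weak agreement was not particular to members.

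**Figure D2:**
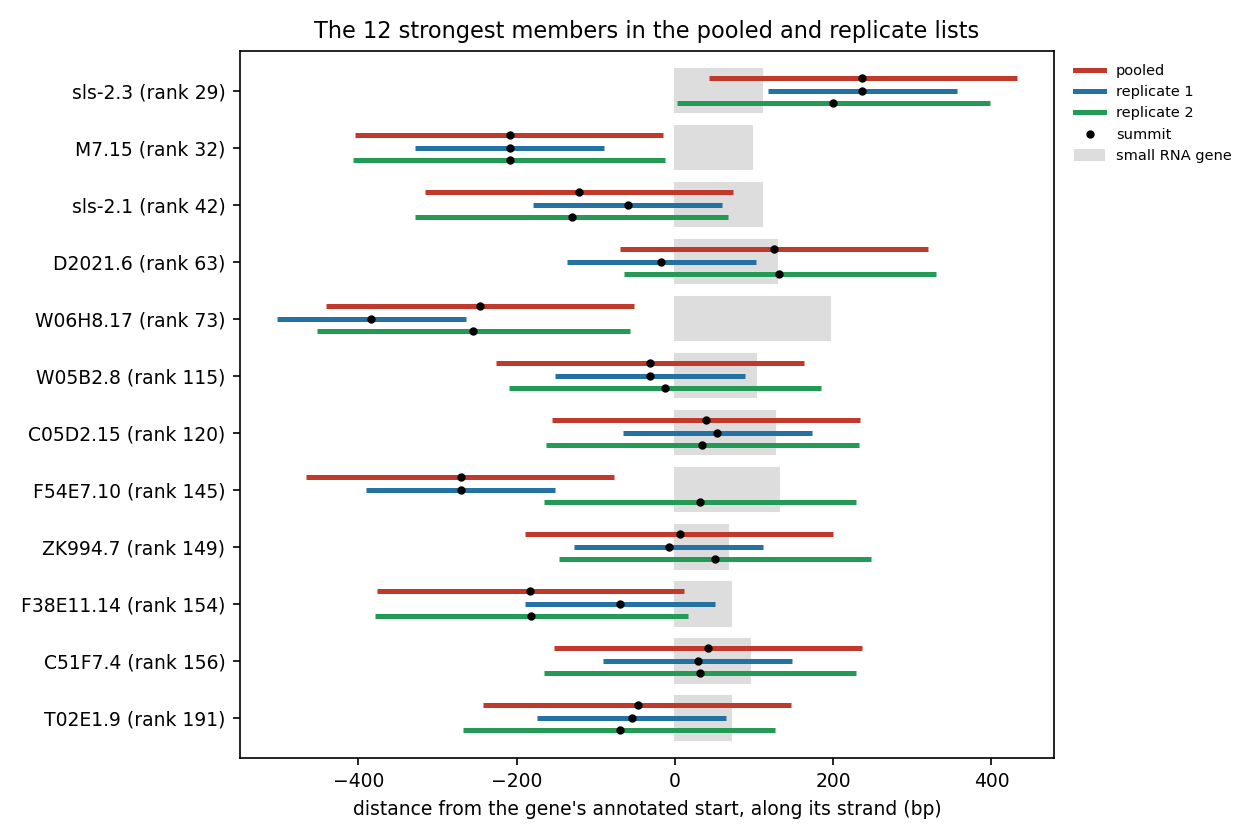
Extent of the pooled, replicate 1 and replicate 2 regions (bars, with the summit as a dot) at the 12 strongest members, against distance in bp from the start of the nearest small RNA gene along its strand (grey box). The summit of 1 replicate lies over 100 bp from the pooled one at D2021.6, W06H8.17, F54E7.10 and F38E11.14. All summits lie outside the small RNA gene at sls-2.3, M7.15, sls-2.1, W06H8.17, W05B2.8, F38E11.14 and T02E1.9.

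Each replicate's list holds exactly 30000 regions, so a region's presence in it is a weak criterion. Of the 216 members, 146 (67.6%) overlapped a replicate 1 region and 156 (72.2%) a replicate 2 region by at least 1 bp. The shares of all pooled regions were lower, at 54.1% and 60.6%. In both replicates 102 members were found (47.2%), against 28.9% of all pooled regions, and in neither 16. Members among the 1000 strongest of both replicates numbered 15 (6.94%), against 179 of all pooled regions (0.601%) and 2 of the regions next to tRNA genes (0.699%). The 15 members met only 12 different regions in each replicate's list, since neighbouring pooled regions overlap and 64 members overlap another pooled region. The 179 and the 2 were not reduced in this way. Because the pooled list was made from both replicates, these shares are not independent of the members' greater pooled strength. Over the 102 members in both lists the ranks of the replicates had a Spearman rho of 0.36, and over all 8603 such pooled regions 0.12, as a description of points that share libraries and local sequence.

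**Figure D3:**
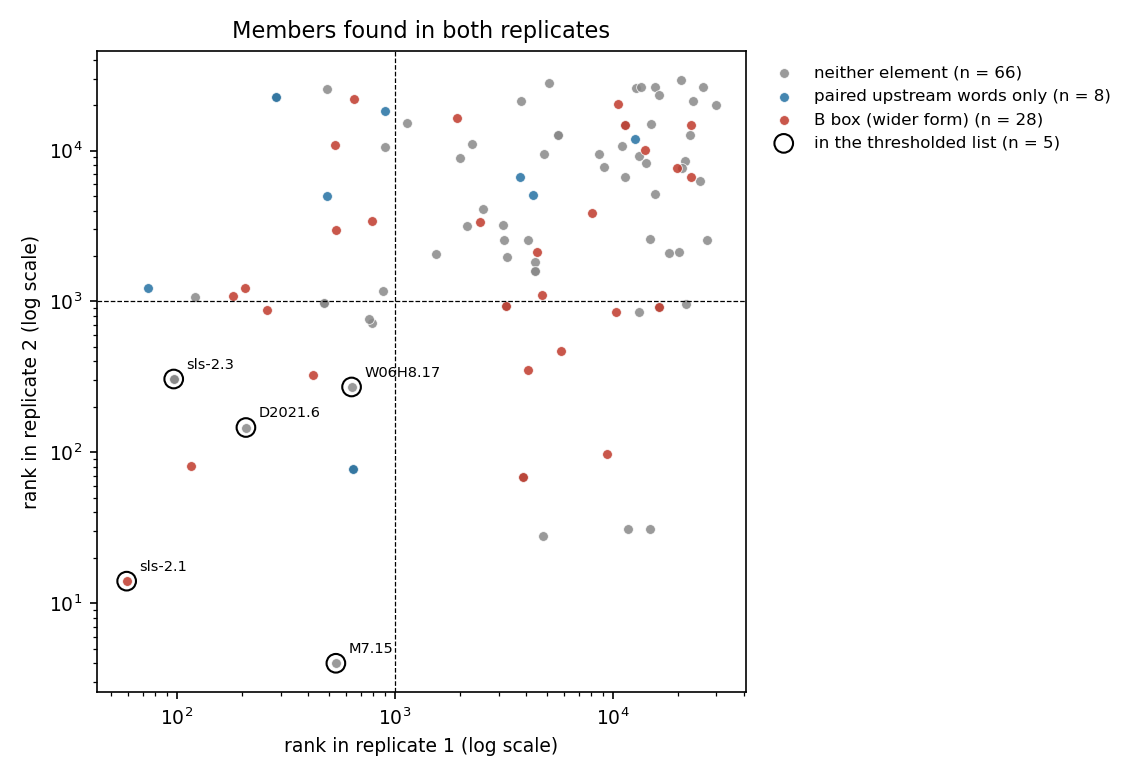
Rank in replicate 1 (horizontal, log scale) against rank in replicate 2 (vertical, log scale) of the 102 members overlapping a region in both lists, coloured by the words within 100 bp of the summit, with the thresholded members circled. The 5 circled members fall left of and below the dashed lines at rank 1000, and many others are strong in 1 replicate only.

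A B box word beside the gene start went with a region, and with a strong one. Of the 346 snoRNA genes, 38 hold the wider form GTTCNANNC within 120 bases before to 20 bases after the start on the gene's strand, where 2.04% of protein-coding gene starts hold it. Of these 38 genes, 28 (73.7%, 56.9 to 86.6%) had a pooled region within 300 bp, against 130 of the 308 without the word (42.2%, 36.6 to 47.9%). A region among the 1000 strongest lay next to 14 of the 38 genes (36.8%) and to 19 of the 308 without (6.17%). The median rank of the strongest region was 1043 at the genes with the word and 9676.5 at those without it, where there was a region. The wider form was chosen after its counts had been seen. With the strict form GTTCGANNC, 14 of 19 genes had a region and 8 of 19 one among the 1000 strongest, against 144 and 25 of the 327 genes without it, and 0.295% of protein-coding starts hold this form. Both replicates showed the same order. In replicate 1 alone, 7 of the 38 genes with the wider form and 16 of the 308 without had a region among the 1000 strongest, and in replicate 2 alone 10 and 14 did.

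The word lay close to the annotated start. Its median position was 14 bases before the start of the snoRNA. The A box word TGGCNNA, as in ZK546.18 and T03F7.8 above, was found at 71 snoRNA starts (20.5%), against 7.54% of protein-coding starts. Of these 71 genes, 14 had a region among the 1000 strongest (19.7%), against 19 of the 275 without it (6.91%). Genes that hold both words, such as ZK546.18 and T03F7.8, enter this comparison and that of the B box. The A box word was not counted apart from the B box. The capital letters in the printed starts show both words in the tRNA order, A before B, at C05D2.15, R166.7, ZK546.18, T03F7.8, F32E10.10 and F12F6.11.

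The same element was counted within 100 bp of the summits, on either strand. The strict B box was in 20 members (9.26%, 5.75 to 13.9%) and in 637 of all 29768 pooled regions, while 37.1% of the regions next to tRNA genes held it. Members with it had a median rank of 518 (interval 348 to 3822), and the 196 members without it a median rank of 11212. Among the 1000 strongest were 11 of the 20 members with it and 27 of the 196 without it (13.8%). In the pooled list the regions next to tRNA genes showed the same order. Their median rank was 5330 (3793 to 8998) in the 106 with the word and 11579.5 (9585 to 12803) in the 180 without it. Of these, 19.8% and 8.33% were among the 1000 strongest. The replicates differed here. Among the 1000 strongest of replicate 1 were 15 of the 106 (14.2%) and 11 of the 180 (6.11%). Among those of replicate 2 were 7 (6.60%) and 14 (7.78%), the opposite order. In regions next to neither kind of gene the median rank was 14381 in the 511 with the word and 14973 in the 28755 without it, and 4.89% and 3.13% were among the 1000 strongest. Where RefSeq marks a pseudogenic tRNA locus within 300 bp of a member, which happened at 2 members, the better rank was 7245.

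**Figure D4:**
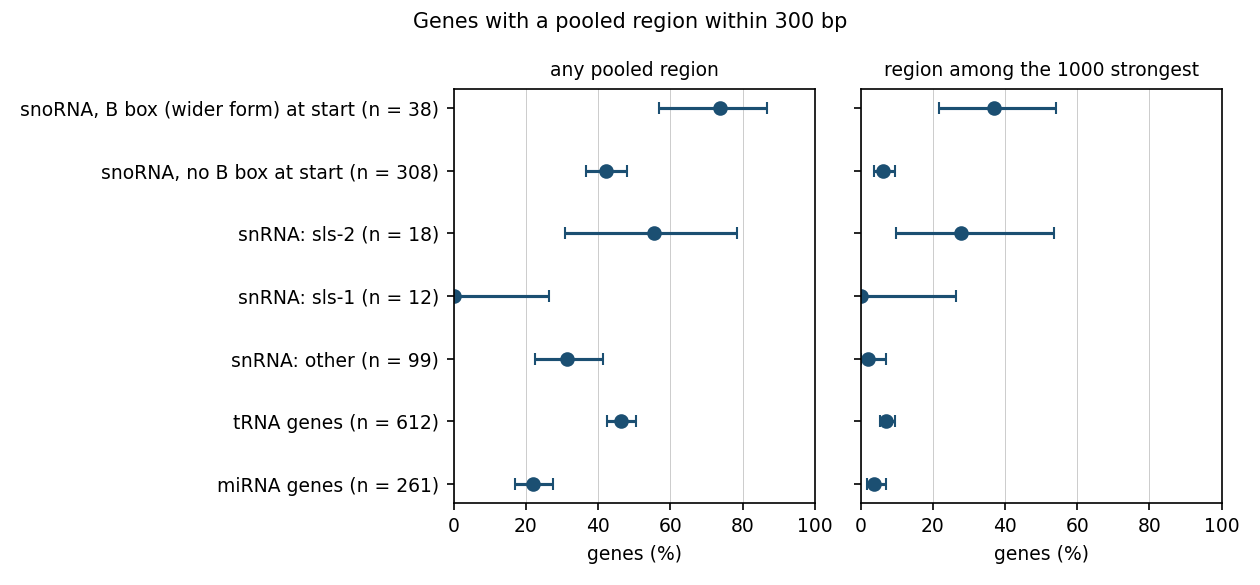
Share of genes (horizontal, %) with any pooled region within 300 bp (left panel) and with one among the 1000 strongest (right panel), by class of gene, with exact 95% intervals as bars. snoRNA genes with the wider B box reach 73.7% and 36.8%, and no sls-1 gene has a region.

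Counted by gene rather than by region, and with regions near tRNA genes included, 199 of the 475 snoRNA and snRNA genes had a pooled region within 300 bp. The share was 45.7% for snoRNA genes (158 of 346) and 31.8% for snRNA genes (41 of 129). For 2 other classes of short gene, it was 46.4% for tRNA genes and 21.8% for miRNA genes. Protein-coding genes measured the same way reached 60.3%, with a median length of 2027 bp against 125 bp for the snoRNA and snRNA genes. A region among the 1000 strongest lay next to 33 snoRNA genes (9.54%) and 7 snRNA genes (5.43%). The shares were 7.19% of tRNA genes, 3.83% of miRNA genes and 3.71% of protein-coding genes. The shares of snoRNA and tRNA genes with a region were thus close, and no difference was tested.

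The spliced leader genes split by type. Of the 18 sls-2 genes, 10 had a region (55.6%, 30.8 to 78.5%), 5 had one among the 1000 strongest and 2 had one in the thresholded list. None of the 12 sls-1 genes had a pooled region (0%, up to 26.5%), and none had one in either replicate's list. All 12 sls-1 genes have an identical copy, lie within 13954 bp of each other on chromosome V and stand 221 to 623 bp from a ribosomal RNA gene, and the nearest pooled summit was 5723 bp away. None of the 20 nuclear rRNA genes had a pooled region either (0%, up to 16.8%), though 1 had a region in replicate 2's list. How reads that match several copies were treated is not given in the sources used here, so missing signal and unmappable reads cannot be told apart at sls-1.

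Upstream of sls-2.1, the sequence was most like that of sls-2.2, sls-2.3 and sls-2.4. Over the 100 bases before the start, sls-2.1 was matched at 70 positions by sls-2.3, at 79 by sls-2.2 and at 62 by sls-2.4, whereas the other 14 sls-2 genes matched sls-2.1 at 25 to 41. Regions next to sls-2.3, sls-2.1 and sls-2.4 had pooled ranks 29, 42 and 462. The rank 29 summit lay 128 bp past the end of sls-2.3, not in the compared bases. With its summit 21 bp before the start of sls-2.3, the other pooled region there had rank 20705. At sls-2.9, matched at only 28 positions, a region left out for a tRNA gene had rank 896. Whether upstream likeness goes with strength was not tested. At sls-2.2 the region had pooled rank 11932 but ranks 421 and 323 in replicates 1 and 2. AACCC and TGTC at their set spacing were found at 9 of the 18 sls-2 genes, of which 3 had a region, against 7 of the 9 without the pair. Of the genes with the pair, sls-2.14 (rank 619, ranks 285 and 22616 in replicates 1 and 2) was the one with a region among the 1000 strongest.

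Over all snRNA genes the AACCC and TGTC pair did not go with having a region of any strength. It was present at 33 of the 129 starts (25.6%, against 0.0601% of protein-coding starts), with AACCC at a median of 59 bases before the start. Of these 33 genes, 10 had a region (30.3%), against 31 of the 96 without the pair (32.3%). In snoRNA genes the shares were 12 of 27 and 146 of 319. A region among the 1000 strongest lay next to 3 of the 33 snRNA genes with the pair (9.09%) and 4 of the 96 without it (4.17%). For snoRNA genes these counts were 2 of 27 and 31 of 319. Within 100 bp of the summit the pair was in 15 members (6.94%) and in 0.39% of all pooled regions. These 15 members had a median rank of 4096 (interval 962 to 18976), and 4 were among the 1000 strongest. Neither the pair nor the wider B box was in 162 of the 216 members, 4 of the 5 thresholded ones included. Those 162 had a median rank of 12856.5 (10082 to 14648), and 20 were among the 1000 strongest (12.3%). No difference was tested.

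The remaining snRNA genes are not divided further by the annotation used. Of these 99, 31 had a region (31.3%) and 2 had one among the 1000 strongest, W05B2.8 and F54D8.7. Both belong to sets of identical copies, W05B2.8 to a set of 14, of which 5 had a region, and F54D8.7 to a set of 3, of which 1 had. F54D8.7 had pooled rank 535 with ranks 5830 and 470 in replicates 1 and 2, and its summit also lay in the promoter window of cox-6A, a cytochrome c oxidase subunit gene. With an identical copy elsewhere, 10 of 32 of these genes had a region, and without one 21 of 67. The 12 smy genes, 10 annotated as snRNA and 2 as snoRNA, had a region in 4 cases, the strongest at rank 1119 between smy-1 and smy-2.

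Summits of the strongest members lay most often before the gene. Of the 38 members in the 1000 strongest, 25 had their summit before the start (65.8%, 48.6 to 80.4%), 16 of them within 100 bp of it, 8 inside the gene and 5 past its end. Among the 142 members weaker than rank 5000 the counts were 67 (47.2%, 38.8 to 55.7%), 33 within 100 bp, 33 inside and 42 past the end. The 36 members between these limits had 21 before the start, 12 of them within 100 bp. The intervals of the strong and the weak members overlap, and no difference was tested. The median summit of the strong members lay 49 bp before the start. Within 300 bp the window before the start is the same length as that past the end, and the weak members were more evenly spread between them.

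**Figure D5:**
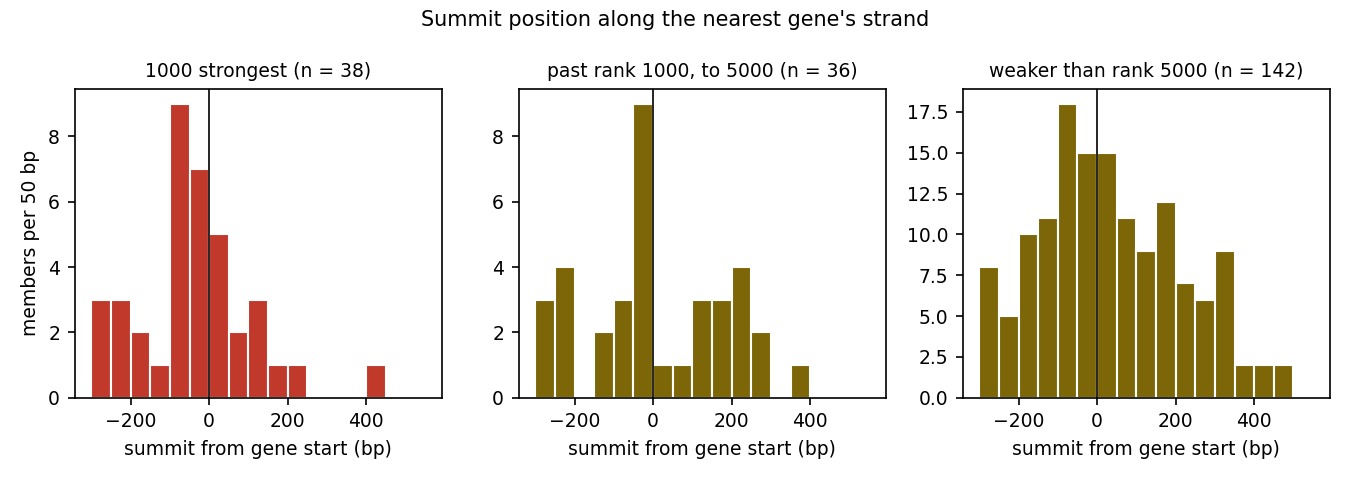
Number of members per 50 bp (vertical) by distance of the summit from the start of the nearest small RNA gene, in bp along the gene's strand, for members in the 1000 strongest, ranks from there to 5000, and weaker ranks. In the strongest group 16 of 38 summits lie within 100 bp before the start.

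Genes with and without a host were both represented. Worm snoRNA genes often lie in introns, and 183 of the 346 snoRNA genes lay inside a protein-coding gene on the same strand, 33 inside one on the opposite strand and 130 in neither. A region was found at 80 (43.7%), 20 (60.6%) and 58 (44.6%) of these, and one among the 1000 strongest at 13 (7.10%), 4 (12.1%) and 16 (12.3%). With the wider B box, 5 of 16 genes with a same-strand host and 8 of 16 without a host had a region among the 1000 strongest. Without the word the counts were 8 of 167 and 8 of 114, so the order was the same in hosted and free-standing genes. Protein-coding promoter windows held 68 members (31.5%) and 29.8% of all pooled regions. Outside those windows 25 of 148 members were among the 1000 strongest (16.9%), against 596 of 20910 regions (2.85%).

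SKN-1 core words were about as common in members as in all regions. SKN-1 binds as a monomer to the core words GTCAT and ATCAT. Either word, on either strand, was in 133 members (61.6%, 54.7 to 68.1%) and in 56.2% of all pooled regions, within 100 bp of the summit. Among the 38 strong members the share was 57.9% (22 of 38). None of the 5 thresholded members held either word (0 to 52.2%), against 46 of the other 92 thresholded regions (50%, 39.4 to 60.6%). These intervals overlap, and 5 regions are too few to tell the shares apart. The full site (A or T in the first and second place, T, A or G, then TCAT) was in 17 members (7.87%) and in 9.35% of all regions. TATAAA was in 16.2% of members and 17.8% of all regions, and TGATAA, the binding word of the GATA factors, in 11.1% and 17.2%. Members had a mean GC content of 43.0%, and all pooled regions 38.2%. The share of GC was 45.6% in the 38 strong members and 42.6% in the 926 other regions of the 1000 strongest, and its part in the strength was not tested.

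Genes for the proteins that make and carry these RNAs were listed as well, and 31 of the 43 that matched the annotation had a pooled region in the promoter window (72.1%, 56.3 to 84.7%), against 41.7% of all protein-coding genes. Promoter windows of 4 held a region among the 1000 strongest (9.30%), against 2.48% of all protein-coding genes. None of the 43 held one of the thresholded list, where only 74 of all 19973 protein-coding genes did, so none is an ordinary count. The strongest was at lsm-7, an Lsm ring protein of the U6 snRNA, with pooled rank 128, and ranks 210 and 9196 in replicates 1 and 2. It was followed by ints-4, of the Integrator complex that processes snRNA ends, with rank 266, and ranks 282 and 327 in replicates 1 and 2. The others were dkc-1, the pseudouridine synthase of box H/ACA particles (rank 597), and snr-6, of the Sm ring (rank 670). By list, a region was found at 4 of 4 box C/D particle genes, 3 of 4 box H/ACA genes, 6 of 7 Sm ring genes, 6 of 7 Lsm ring genes and 7 of 11 Integrator genes. The region at snr-4, of the Sm ring, is also the member next to the snRNA gene C52E4.8 (rank 1878). Of the spliced leader particle genes, sna-2 had a region (rank 3122) and sna-1 had none. The gene sut-2 was listed with them and had a region of rank 20757. Its place in the particle is not established here, and it is counted in the 31 of 43. The SNAP complex, which binds the proximal sequence element, had a region at 3 of 7 genes, the best at rank 8380. fib-1, the methyltransferase of box C/D particles, had rank 4450, with rank 475 in replicate 1 and no overlapping region in replicate 2.

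At the edge of the rule, the members farthest from their gene were next to F37F2.4, at 300 bp and rank 677, and C18D1.21, at 300 bp and rank 20429. The nearest regions outside lay 312 bp from F32B5.17, with rank 9925, and 323 bp from F17C11.14, with rank 21384. A tRNA gene within 300 bp removed 2 regions, one 16 bp from sls-2.9 with rank 896 and one 84 bp from M163.14 with rank 2307. The 216 members had 190 different nearest genes, 26 of which were nearest to 2 members each.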

How the data were processed

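eGFP-SKN-1 chromatin immunoprecipitation was measured in 2 biological replicates of L4 larvae. The authors deposited ce11 region lists, 1 per replicate, 1 pooled and 1 thresholded. Per the labels' file listing, the relaxed lists hold peaks with background, called against a control alignment, which was not analysed here. No aligner, peak caller or cut-off on the irreproducible discovery rate is named in the labels or file listing. The deposited signal value, of unstated scale, gave each region its rank within its own list. The deposited −log10 q-value was not used, and the deposited summit offset placed the summit. Median region widths were 240 bp (replicate 1), 396 bp (replicate 2) and 390 bp (pooled), so resolution differs between replicates. Depth and the precision it gives are unknown, and with 1 group no test between groups was made.

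Genes came from Ensembl release 115, names and sequence from RefSeq WBcel235, the same assembly. All 475 snoRNA and snRNA genes matched a RefSeq symbol. A member's rank in a replicate is that of the strongest region overlapping by at least 1 bp. Shares carry exact (Clopper-Pearson) 95% intervals, and medians exact binomial ones. Motifs were searched on both strands within 100 bp of the summit, and on the gene's strand at starts. The A box word, the wider B box and the AACCC and TGTC pair were added after seeing the data. Named members are those in the thresholded list, the 25 strongest and the 5 with the best worse replicate rank. Others were named after their values were seen, where a count of 5 or fewer or a class turned on them. The members, gene lists and words were chosen with earlier results of these data known. Protein lists held 48 names, of which 43 matched a protein-coding gene. Alternatives changed the window, the overlap, the neighbours left out, the limit and the replicate. Distances and overlaps were tested on simulated positions. Python 3.11.15, NumPy 2.4.6, pandas 2.3.3, SciPy 1.17.1 and Matplotlib 3.10.9 were used.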

Additional observations from a re-analysis of the deposited data

How the results depend on the processing

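With a window of 100 bp, 0.752% of members were in the thresholded list (1 of 133) and 27.8% of genes had a region. With 1000 bp, 64.2% of genes had a region and 39.7% of members were found in both replicates. Counting any overlap of region and gene, 34.5% of genes had a region. The share of members among the 500 strongest regions was 10.6%, and among the 5000 strongest 34.3%. Requiring an overlap of 0.5 of the shorter region, 32.9% of members were in both replicates. The wider B box, chosen after seeing the data, was in 18.5% of members. Wider windows move counts because they hold more ground, and other causes were not tested. From 1 replicate's list alone, 1.53 to 3.96% of members were among its 97 strongest and 14.3 to 15.3% among its 1000 strongest, the median rank was 9158.5 to 11695, and 38.5 to 39.8% of genes had a region. Single regions varied far more, and of the named ones 24 moved by more than 1.5 times in rank in replicate 2's list and 21 in replicate 1's. Keeping tRNA neighbours, leaving out protein-coding promoter windows or genes with identical copies, and leaving out members with a strict B box (13.8% among the 1000 strongest, chosen after seeing the data) kept every share and median within its interval. No paired analysis was possible because there is 1 group and no test. Limits are the unknown depth, the pooled lists, the absence here of a control profile and reads shared by identical copies.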

Other observations

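The members lay on all 6 nuclear chromosomes. The share of snoRNA and snRNA genes with a region was similar on all, from 38 of 100 genes on chromosome IV to 44.8% on chromosome III. Chromosome III had 11 of the 38 members in the 1000 strongest and chromosome X had 1, on 67 and 36 genes. The shares of all pooled regions on each chromosome were not counted. These counts are therefore not read as a difference between chromosomes.

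Some members outside the 1000 strongest pooled regions were inside that limit in both replicates. The region next to the snoRNA gene T06C12.16 had pooled rank 1671, with ranks 784 and 717 in replicates 1 and 2. A region next to C24G7.6 had pooled rank 1982, with ranks 473 and 971. ZK20.9 differed between the replicates, with pooled rank 891, rank 4793 in replicate 1 and rank 28 in replicate 2. These were named after their values were seen.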
